A study of Homo sapiens with 27 samples.

Results

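The comparison described here is that of A431 cells given Compound Kushen Injection (CKI) together with doxorubicin and A431 cells given doxorubicin alone. A431 is an established human epidermoid carcinoma line, a squamous tumour line of keratinocyte type. CKI is an extract of the herbs Kushen and Baituling that is used as an injection beside chemotherapy. The 6 libraries of the comparison were chosen by their labels, 3 for each group, out of 27 libraries in the series, and the submitters call the 3 libraries of each group biological replicates. Untreated A431 cells, A431 cells with a vehicle control and A431 cells with CKI alone at 1.0 mg/ml gave 3 libraries each and serve as reference, and all 15 A431 libraries were collected after 48 h in medium with serum. CKI was given at 1.0 mg/ml in the combined treatment as well, and the doxorubicin dose of these libraries is not printed because the labels name more than one. The question was which programs of doxorubicin-treated cells were higher or lower when CKI was added. The composition of the vehicle, and whether the doxorubicin libraries received it, are not given in the labels, so an effect of CKI and an effect of its vehicle cannot be told apart in the comparison of CKI plus doxorubicin with doxorubicin. The value of the vehicle control is therefore given beside genes that it moved.

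Doxorubicin is an anthracycline that intercalates into DNA and traps topoisomerase II on it, which breaks the DNA and halts dividing cells. Broken or misplaced DNA is known to raise type I interferon and its target genes. Sterol and fatty acid synthesis is switched on by SREBP transcription factors, which INSIG1 holds back when sterols are plentiful. The aryl hydrocarbon receptor is a sensor of planar aromatic compounds and NRF2 a sensor of electrophiles, and each drives its own set of detoxifying enzymes. DNA replication and mitosis genes are driven by E2F factors and by MuvB-containing complexes, and their RNA falls when cells leave the cycle.

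The A431 libraries had total counts between 17757206 and 21756536. In the 6 libraries compared the totals reached at most 19453887, and 3 reads there were worth 0.154 to 0.169 CPM, the unit of counts relative to the library total. The doxorubicin and CKI plus doxorubicin libraries had a count for 20677 to 20802 genes, and the other A431 libraries for 16439 to 17338. The genes that mark keratinocytes were present in the 6 libraries compared, with mean levels of 1654 ± 22.9 CPM (SD, n = 3) for KRT5 and 1087 ± 42.2 CPM for SFN after doxorubicin. The vehicle control libraries differed from each other more than other replicates did, with a chi-square of 9.22 to 26.1 per degree of freedom against 1.87 to 5.14 in the other groups. A gene is called higher, or said to have risen, when its adjusted p-value was under 0.05 and its log2 fold change over 1, and lower, or to have fallen, for the same size in the other direction. Levels are CPM scaled by TMM factors, and errors of log2 fold changes are standard errors (SE) from a fit of all 15 libraries.

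Of 15881 genes tested, 2369 (14.9%) differed between CKI plus doxorubicin and doxorubicin (edgeR, Benjamini-Hochberg adjusted p), 1094 (6.89%) being higher and 1275 (8.03%) lower with CKI. At an adjusted p under 0.05 with no limit on size, 33.8% of genes were higher and 29.8% lower. The median log2 fold change of all genes was 0.03. For reference, CKI alone against untreated cells gave 12% of genes higher and 10.4% lower, doxorubicin against untreated cells gave 23% higher and 14.3% lower, and the vehicle control against untreated cells 1.05% higher and 1.5% lower. Library size alone in place of TMM factors moved the split of calls for doxorubicin from 61.6% to 78.3% higher and the median log2 fold change of all genes from 0.02 to 0.36, and it moved the split for the interaction described below from 44% to 33%. For the vehicle control the split moved from 41.1% to 62.6% higher with offsets for GC content and length. The comparisons share libraries, so that their values are set side by side and no overlap between them is drawn.

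**Figure D1:**
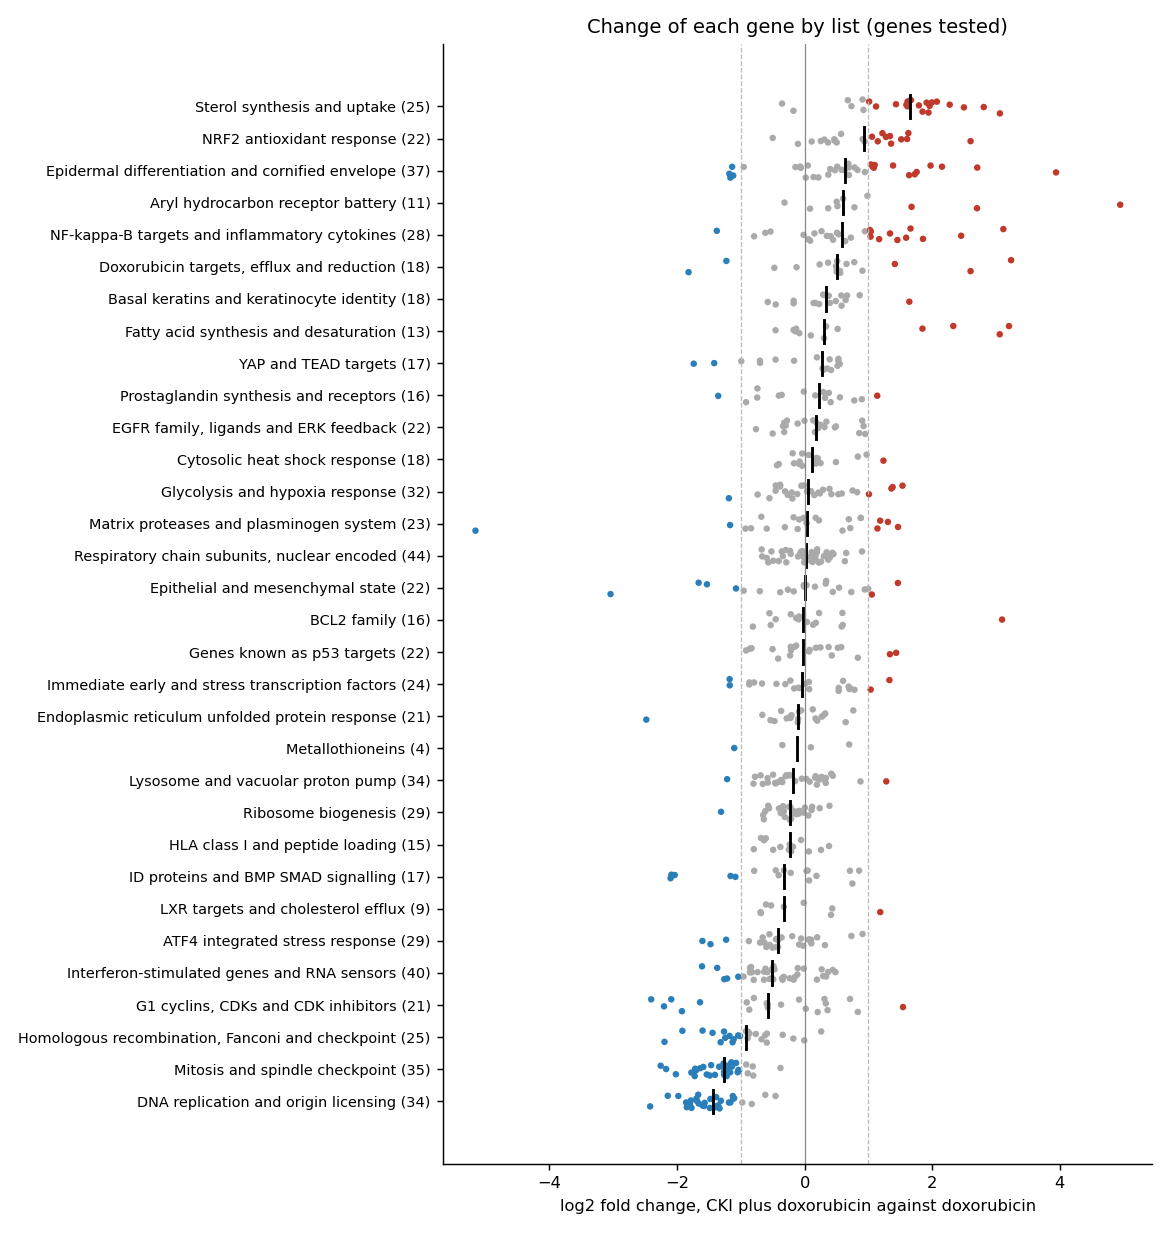
Log2 fold change of CKI plus doxorubicin against doxorubicin (x axis) for each gene of 32 lists (y axis, with the number of genes tested), where red points were called higher, blue points lower and grey points neither, and the black bar is the list's median. The medians run from -1.44 for DNA replication to 1.65 for sterol synthesis, against 0.03 for all genes.

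Sterol synthesis showed the highest median of the 32 lists. Of 25 genes tested, 19 rose when CKI was added to doxorubicin and 6 did not pass the test, with a median log2 fold change of 1.65. That is 76% of the list, against 6.89% of all genes. As the libraries are of whole cultures, fewer cells that use a gene and less RNA of it per cell cannot be told apart here or in what follows. INSIG1 (chr7:155089486-155101945; gene coordinates are on GRCh37), the protein that holds the SREBP activating complex in the endoplasmic reticulum and is itself an SREBP target, stood at 64.3, 65.6 and 63.6 CPM in the doxorubicin libraries and at 529.9, 543 and 543 CPM with CKI plus doxorubicin. The groups did not overlap, with a difference of 8.35-fold, at a log2 fold change of 3.06 ± 0.06 (SE, adjusted p = 1.35e-20). INSIG1 had been lower in doxorubicin than in untreated libraries, which stood at 124, 129 and 136 CPM.

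MSMO1, a sterol C4-methyl oxidase, rose from 63.1 ± 3.76 to 442 ± 6.995 CPM (SD, n = 3), a log2 fold change of 2.81 ± 0.07 (adjusted p = 6.39e-19). SQLE, the squalene epoxidase that commits squalene to sterols, rose from 59.8 ± 0.943 to 338 ± 13.6 CPM, by 2.497 ± 0.06 on the log2 scale. SQLE had fallen under doxorubicin from 239, 261 and 265 CPM in untreated cells, and with the combined treatment it lay above these. HMGCS1, which makes HMG-CoA, rose by 1.91 ± 0.06. In the vehicle control HMGCS1 was itself higher than in untreated cells, by 1.46 ± 0.06, and the other 24 sterol genes did not pass the test there. The median log2 fold change of the 25 sterol genes in the vehicle control was 0.52, against 0.00 for all genes. Their summed level was 5456 to 5527 CPM there and 3718.5 to 4111 CPM in untreated libraries. The 6 sterol genes that did not pass had log2 fold changes from -0.35 to 0.92.

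Fatty acid synthesis was divided. Of 13 genes, 4 (30.8%, against 6.89% of all genes) rose, FASN, LPIN1, SCD and ACSS2. The other 9 did not pass the test, and the median was 0.30. FASN (chr17:80036214-80056170), the fatty acid synthase, had 2038, 1838 and 2099 CPM in untreated libraries, 106, 103 and 104 CPM with doxorubicin and 1048, 921 and 914 CPM with CKI plus doxorubicin. The combined treatment thus lay between doxorubicin and untreated cells, 9.21-fold above doxorubicin (log2 fold change 3.20 ± 0.13, adjusted p = 1.84e-15). SCD, the stearoyl-CoA desaturase, went from 159 ± 2.41 to 801 ± 25.0 CPM, and LPIN1, a phosphatidate phosphatase, from 15.6 ± 1.03 to 130.2 ± 2.22 CPM. ACSS2, which makes acetyl-CoA from acetate, went from 36.5 ± 1.11 to 131 ± 3.08 CPM. The 9 genes that did not pass had log2 fold changes from -0.46 to 0.52. ACSL1, which couples fatty acids to coenzyme A, lies outside the list and was among the 8 genes with the smallest adjusted p-values that rose, by 2.63 ± 0.07. Of 9 genes of cholesterol efflux that LXR drives, 1 (11.1%, against 6.89% of all genes) rose, ABCG1, from 1.69, 0.934 and 0.991 to 3.05, 2.58 and 2.62 CPM. The exporter ABCA1 had a log2 fold change of 0.41 ± 0.07 and was not called.

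CKI without doxorubicin raised 19 of the 25 sterol genes against untreated cells, with a median of 1.80, where it raised 12% of all genes. The difference between both effects, tested as an interaction, was called for 4 of the 25 genes, 2 in each direction, where 8.56% of all genes had a larger log2 fold change with doxorubicin and 10.9% a smaller one. In fatty acid synthesis the interaction was called for 2 of 13 genes with a positive and 4 with a negative sign, with a median of -0.49. FASN had a log2 fold change that was larger with doxorubicin by 2.03 ± 0.17 and LPIN1 by 1.14 ± 0.10, and that of ACSS2 was among the 4 that were smaller (-1.29 ± 0.08). In 250 bases before the start site, the motif TCACNCCAC on either strand was found in 1 of 18 sterol genes with a promoter sequence and in 0.828% of all 12559 promoters of tested genes.

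**Figure D2:**
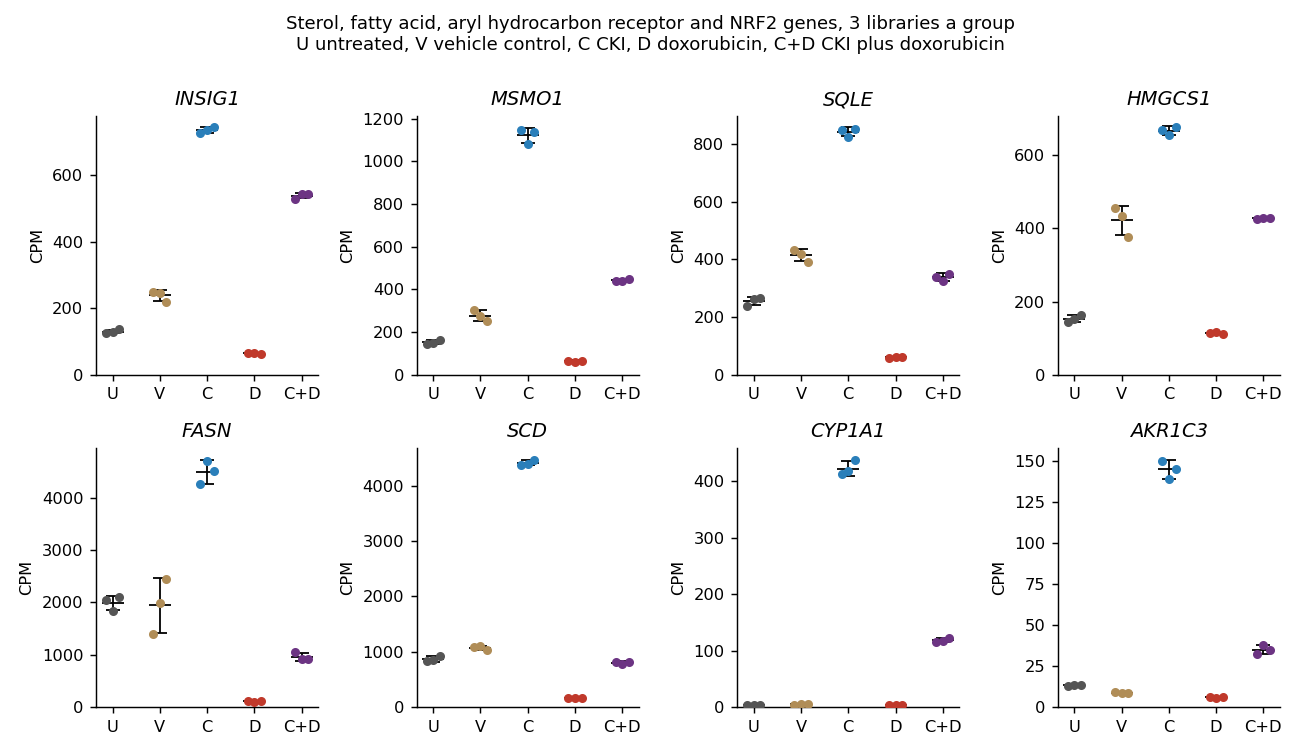
Level (CPM, linear axis from 0) of 8 genes in the 5 A431 groups, with 1 point per library and the mean ± SD of 3 libraries in black. Every CKI plus doxorubicin library lies above every doxorubicin library for each of the 8 genes, and CYP1A1 is highest in CKI alone, at 413 to 437 CPM.

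CYP1A1 had the smallest adjusted p-value of all genes that rose. This cytochrome P450 (chr15:75011883-75017877) oxidises polycyclic aromatic compounds and is the usual read-out of the aryl hydrocarbon receptor. It stood at 3.72, 3.83 and 3.92 CPM with doxorubicin and at 115, 118 and 122 CPM with CKI plus doxorubicin, 30.8-fold higher (log2 fold change 4.95 ± 0.09, adjusted p = 6.1e-21). CKI alone reached 413, 418 and 437 CPM, while untreated libraries held 3.42 to 4.23 CPM and vehicle libraries 3.54 to 5.11 CPM. The level in the combined libraries thus lay between doxorubicin and CKI alone. The rise was smaller in the presence of doxorubicin, with an interaction of -1.82 ± 0.15 (adjusted p = 4.22e-10).

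Of 11 genes of the aryl hydrocarbon receptor battery, 3 (27.3%, against 6.89% of all genes) rose, CYP1A1, CYP1A2 and AHRR, and 8 did not pass. CYP1A2, the liver enzyme next to CYP1A1, stayed low, at 0.0483, 0.393 and 0.00 and 1.02, 1.15 and 0.805 CPM. AHRR, the repressor that the receptor induces against itself, went from 1.74, 1.62 and 1.93 to 6.34, 5.02 and 5.58 CPM. CYP1B1, the extrahepatic member of the same family, had 29.3 ± 1.01 CPM with doxorubicin and 41.9 ± 1.7 CPM with the combined treatment, a log2 fold change of 0.51 ± 0.07 that was not called. With CKI alone its log2 fold change was 2.57 ± 0.08, and the interaction of -2.06 ± 0.10 was called. Over the 11 genes the interaction was called for 4, each with a negative sign, where 10.9% of all genes had a negative one.

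Of 22 genes of the NRF2 response, 10 (45.5%, against 6.89% of all genes) rose and 12 did not pass, with a median of 0.92. AKR1C3, an aldo-keto reductase that also reduces doxorubicin, went from 5.94, 5.26 and 6.05 to 32.3, 37.9 and 34.6 CPM, 6.07-fold (log2 fold change 2.60 ± 0.08). Its near-identical relatives AKR1C1 (log2 fold change 1.61 ± 0.08) and AKR1C2 (1.51 ± 0.06) may share reads with it, so the division among them is uncertain. ME1, the cytosolic malic enzyme that supplies NADPH, rose by 1.63 ± 0.07, and HMOX1, the haem oxygenase, by 1.35 ± 0.07 from 49.0 ± 2.65 to 125 ± 6.14 CPM. HMOX1 had already been raised by doxorubicin, from 19.7 ± 0.331 CPM in untreated cells, and its interaction of -1.02 ± 0.10 was just past the limit. NQO1, a quinone reductase often taken as the reference gene of NRF2, had a log2 fold change of 0.50 ± 0.05 and was not called.

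Among 18 genes that doxorubicin targets or that export or reduce it, 3 rose (NOS3, AKR1C3 and XDH) and 2 fell (CBR3 and TOP2A). These are 16.7% and 11.1% of the list, against 6.89% and 8.03% of all genes. NOS3 (chr7:150688105-150711676), the endothelial nitric oxide synthase whose reductase part can also reduce doxorubicin, went from 4.74, 4.86 and 4.76 to 49.1, 44.01 and 42.2 CPM (log2 fold change 3.24 ± 0.11). CBR3, a carbonyl reductase, fell from 12.3 ± 0.497 to 3.47 ± 0.403 CPM, and XDH, xanthine dehydrogenase, rose from 9.36 ± 1.1 to 25.0 ± 1.26 CPM. ABCB1, the efflux pump of doxorubicin, was listed at 0 in each untreated and CKI library. It had 0.483, 0.786 and 0.595 CPM with doxorubicin and 1.25, 1.24 and 1.01 CPM with the combined treatment, a log2 fold change of 0.91 ± 0.32 that was not called. It passed the log2 limit of 1 without doxorubicin replicate 2 (1.11) and without CKI plus doxorubicin replicate 3 (1.00).

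The cell cycle held the lowest medians. Of 34 genes of DNA replication and origin licensing, 30 (88.2%) fell when CKI was added to doxorubicin and 4 did not pass, with a median log2 fold change of -1.44. Of 35 genes of mitosis and the spindle checkpoint, 30 (85.7%) fell and 5 did not pass, with a median of -1.26. The share of all genes that fell was 8.03%. Doxorubicin alone lowered 4 of the replication and 3 of the mitosis genes against untreated cells, where it lowered 14.3% of all genes.

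MCM3, a subunit of the helicase that is loaded on origins, is a plain example. It had 555, 550.0 and 577 CPM in untreated libraries, 440.1, 431.2 and 432 CPM with doxorubicin and 128, 128 and 123 CPM with CKI plus doxorubicin. The 2 groups compared did not overlap, and the log2 fold change was -1.78 ± 0.05 (adjusted p = 5.6e-18). CKI alone gave 96.9, 97.2 and 96.9 CPM, under the combined treatment. GINS2, another part of the replicative helicase, fell from 32.8 ± 1.42 to 6.11 ± 0.333 CPM, 5.36-fold. The licensing factor CDT1 fell by 2.15 ± 0.13 and TYMS, which makes thymidylate, by 1.98 ± 0.09 on the log2 scale. PCNA, the clamp of the polymerases, stood at 390.2 ± 15.5 and 129 ± 2.69 CPM.

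KIF20A (chr5:137514408-137523412), a kinesin of cytokinesis, fell most among the mitotic genes, from 49.7, 51.2 and 47.5 to 10.2, 11.3 and 9.56 CPM (log2 fold change -2.26 ± 0.09). AURKB, the kinase of the chromosomal passenger complex, fell by 2.17 ± 0.07 and SPC25, of the kinetochore, by 2.02 ± 0.10. TOP2A, the topoisomerase II isoform of dividing cells and the target of doxorubicin, had 270.4, 289 and 270.0 CPM with doxorubicin and 118, 116 and 120.5 CPM with CKI added. These libraries lie apart at a log2 fold change of -1.23 ± 0.06 (adjusted p = 6.78e-14). CCNB1, cyclin B1, fell by less, 1.05 ± 0.06 on the log2 scale, and its fall was smaller than with CKI alone by 1.17 ± 0.08 (interaction).

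E2F1 and E2F2, the activating E2F factors, had log2 fold changes of 0.74 ± 0.06 and 0.44 ± 0.07 in doxorubicin against untreated cells, which were not called, and fell with CKI. E2F1 stood at 106, 108 and 102 CPM untreated, 180.1, 173 and 177 CPM with doxorubicin and 36.3, 31.6 and 31.8 CPM with CKI plus doxorubicin, a log2 fold change of -2.41 ± 0.07 against doxorubicin. E2F2 went from 42.6 ± 0.21 to 9.23 ± 0.244 CPM and CDKN2C, an inhibitor of CDK4 and CDK6, from 56.8 ± 1.4 to 13.3 ± 0.402 CPM. Over 21 G1 genes, 5 (23.8%, against 8.03% of all genes) fell and 1 (4.76%, against 6.89%) rose. The latter was CCND2, cyclin D2, which had 11.7, 13.3 and 10.2 CPM untreated, 1.01, 1.13 and 0.545 CPM with doxorubicin and 2.68, 2.63 and 2.57 CPM with both. CDKN1A, the inhibitor p21, was raised by doxorubicin from 84.0 ± 3.99 to 277 ± 13.3 CPM and stood at 494 ± 13.9 CPM with both. Its log2 fold change of 0.83 ± 0.05 was under the limit, which it passed with offsets for GC content and length (1.05).

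Repair genes moved less uniformly. Of 25 genes of homologous recombination, the Fanconi pathway and the checkpoint, 12 (48%, against 8.03% of all genes) fell. The other 13 did not pass, and the median was -0.92. RAD51AP1, a protein of strand exchange, had been raised by doxorubicin from 27.3 ± 0.863 to 61.8 ± 2.25 CPM and fell with CKI to 13.5 ± 0.131 CPM. XRCC2, a recombination protein, fell by 1.92 ± 0.12 and the exonuclease EXO1 from 28.5 ± 1.46 to 9.42 ± 1.09 CPM. A further 4 genes were among the 8 with the smallest adjusted p-values that fell, namely HMGB2 (log2 fold change -2.61 ± 0.06), RMI2 (-2.18 ± 0.06), DBF4B (-2.81 ± 0.08) and FAM111B (-2.43 ± 0.07). DBF4B, a regulatory subunit of the kinase CDC7, had risen from 32.5 ± 3.43 CPM in untreated cells to 117 ± 1.03 CPM with doxorubicin, and fell to 16.7 ± 1.62 CPM with both.

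The promoters of 2 of the licensing genes are shown because the replication genes moved together and E2F sites are the known common element of such promoters. The capitals mark a match to TTTCCCGC, TTTCGCGC, TTTGGCGC or TTTGCCGC on either strand, and the sequences are the 250 bases before the start site in RefSeq on GRCh38.p14, MCM3 at chr6:52284743-52284992 on the reverse strand and CDT1 at chr16:88803539-88803788 on the forward strand.
MCM3: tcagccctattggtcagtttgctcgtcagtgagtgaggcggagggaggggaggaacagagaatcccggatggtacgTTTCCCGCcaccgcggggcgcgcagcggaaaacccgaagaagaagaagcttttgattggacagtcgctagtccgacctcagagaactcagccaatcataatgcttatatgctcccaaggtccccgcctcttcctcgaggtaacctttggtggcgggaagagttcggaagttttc
CDT1: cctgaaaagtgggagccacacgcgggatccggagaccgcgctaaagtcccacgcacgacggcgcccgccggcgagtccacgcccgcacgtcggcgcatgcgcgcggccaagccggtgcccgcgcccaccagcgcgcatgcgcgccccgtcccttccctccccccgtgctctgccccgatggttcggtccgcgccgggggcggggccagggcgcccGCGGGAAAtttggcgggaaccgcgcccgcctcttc
The match began 174 bases before the start site in MCM3 and 35 bases before it in CDT1. Such a match was found in 12 of the 30 replication genes with a sequence (40%), in 2 of 28 mitosis genes (7.14%) and in 4.12% of all promoters. The motif TTTGAA, the core of the element bound by MuvB complexes, was found on either strand in 14 of 28 mitosis genes (50%), in 1 of 30 replication genes (3.33%) and in 9.06% of all promoters. A match is a description of the letters and does not show that a factor was bound.

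**Figure D3:**
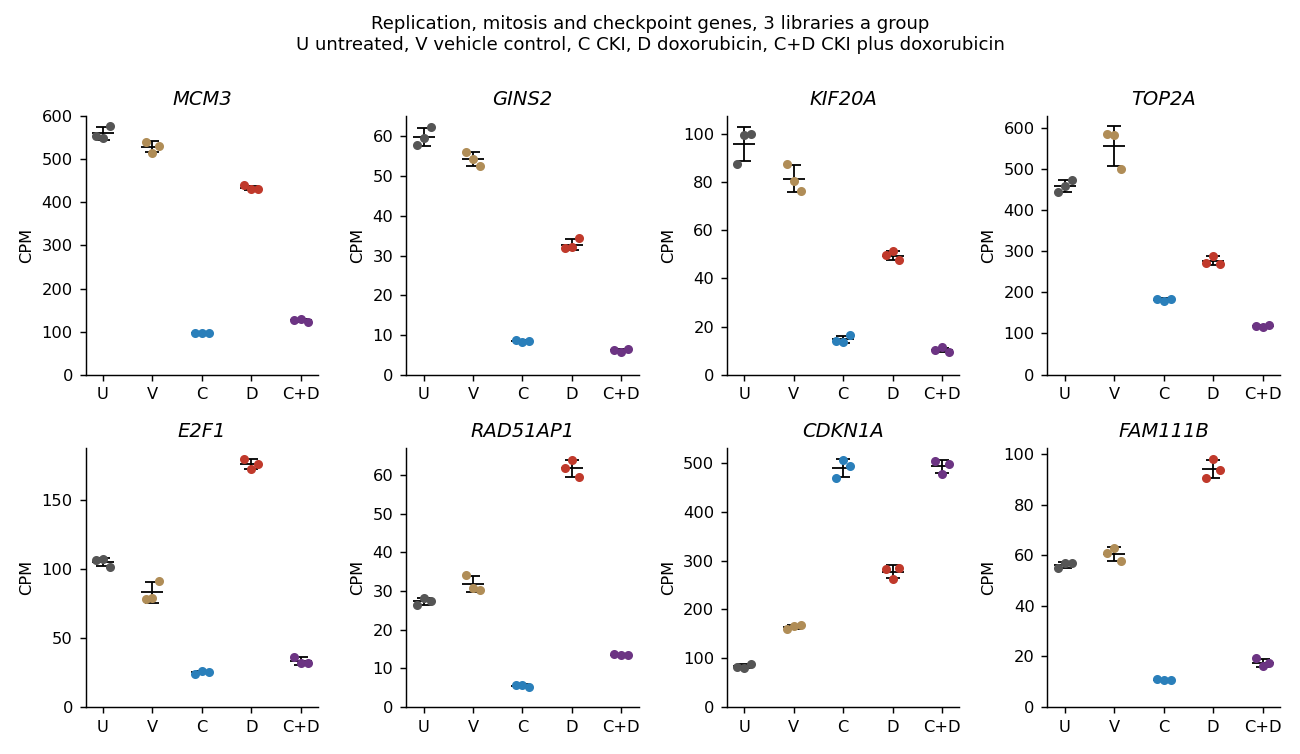
Level (CPM, linear axis from 0) of 8 genes of replication, mitosis and checkpoints in the 5 A431 groups, with 1 point per library and the mean ± SD of 3 libraries in black. For every gene but CDKN1A the CKI plus doxorubicin libraries lie below the doxorubicin libraries, and E2F1, RAD51AP1 and FAM111B are highest in doxorubicin.

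CKI alone lowered all 34 replication genes and 34 of 35 mitosis genes against untreated cells, with medians of -2.22 and -1.88. CKI alone lowered 10.4% of all genes. The fall was smaller with doxorubicin for 8 of the 34 replication and 3 of the 35 mitosis genes, for which a positive interaction was called. MCM3 was not among these, with an interaction of 0.75 ± 0.07. A negative interaction was called for no gene of either list. Among all genes 8.56% had a positive and 10.9% a negative interaction, so that the mitosis count was near the share of all genes. Ribosome biogenesis behaved otherwise, with 19 of 29 genes lower in CKI than in untreated cells and a median of -1.30, but 1 gene lower (NOP56, with a log2 fold change of -1.31 ± 0.05) and a median of -0.22 when CKI was added to doxorubicin. NOP56 alone is 3.45% of the list, against 8.03% of all genes that fell. For 12 of these 29 genes the interaction was called, each time with a positive sign.

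Interferon genes had the highest share of genes raised by doxorubicin among the 32 lists. Doxorubicin raised 36 of 40 against untreated cells, with a median log2 fold change of 2.95, where it raised 23% of all genes. With CKI added, 5 of the 40 (12.5%) fell and 35 did not pass, with a median of -0.51, against 8.03% of all genes that fell. At an adjusted p under 0.05 alone, 30 of the 40 were lower and 4 higher, against 29.8% lower and 33.8% higher for all genes.

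OASL (chr12:121455566-121477049), an interferon-induced protein of RNA sensing, had 20.9, 19.8 and 21.6 CPM in untreated libraries, 529, 542 and 556 CPM with doxorubicin and 179, 182 and 172 CPM with CKI plus doxorubicin. The combined libraries lie between the other groups, and the log2 fold change against doxorubicin was -1.61 ± 0.06 (adjusted p = 1.17e-15). IFIT2, a binder of foreign RNA, went from 789, 836 and 796 to 307, 306 and 323 CPM against 50.1 ± 1.42 CPM untreated. IFNL1, a type III interferon, was at 8.07, 8.3 and 7.53 CPM with doxorubicin and 3.7, 3.3 and 3.27 CPM with both, while untreated libraries held 0.119 to 0.165 CPM, about the worth of 3 reads. IFNB1, the type I interferon of epithelial cells, was listed at 0 in untreated libraries and fell from 1.06, 0.786 and 1.29 to 0.416, 0.478 and 0.402 CPM. HERC5, the ligase that attaches ISG15 to proteins, fell from 262 ± 5.74 to 127 ± 1.84 CPM. For each of these 5 genes the level with both agents lay under doxorubicin and above untreated cells.

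IFIT1 and ISG15, both standard read-outs of the interferon response, moved in the same direction by less and were not called. IFIT1 stood at 589.6, 645 and 579 CPM with doxorubicin and 410.1, 413 and 415 CPM with both (log2 fold change -0.55 ± 0.07), and ISG15 at 837, 824 and 885 and 613, 587 and 617 CPM (-0.49 ± 0.05). The 35 genes that did not pass had log2 fold changes from -0.96 to 0.48. CKI alone lowered 2 and raised 1 of the 40 genes, where it lowered 10.4% and raised 12% of all genes. The interaction was called for 6 genes with a negative and 1 with a positive sign, where 10.9% and 8.56% of all genes were called. Among the negative ones were OASL (-1.52 ± 0.10), IFIT2 (-1.76 ± 0.10) and HERC5 (-1.06 ± 0.10).

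The promoter of IFIT1 is shown as that of a gene that doxorubicin raised by 3.53 ± 0.07 on the log2 scale and that carries the interferon-stimulated response element. The capitals mark the element, TTTC, any 2 bases and TTTC, on either strand in the 250 bases before the start site (GRCh38.p14, chr10:89392373-89392622, forward strand).
IFIT1: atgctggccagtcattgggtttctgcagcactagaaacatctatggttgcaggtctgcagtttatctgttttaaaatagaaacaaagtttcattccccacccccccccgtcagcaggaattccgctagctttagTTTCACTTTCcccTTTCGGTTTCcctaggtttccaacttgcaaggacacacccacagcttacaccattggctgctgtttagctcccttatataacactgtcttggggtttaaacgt
The matches start 116 and 103 bases before the start site. The motif was present in 18 of 32 interferon genes with a sequence (56.2%) and in 2.44% of all promoters, and IFNL1 and HERC5 held it too. Of 15 HLA class I and peptide loading genes, none passed the limits in edgeR or in DESeq2, and at an unadjusted p under 0.05 edgeR gave 2 higher and 11 lower.

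Inflammatory genes driven by NF-kappa-B rose more often than they fell. Of 28 genes tested, 11 (39.3%, against 6.89% of all genes) rose when CKI was added to doxorubicin, 1 fell and 16 did not pass, with a median of 0.58. The vehicle control alone raised 14 of the 28 against untreated cells, with a median of 1.19, where it raised 1.05% of all genes. The interaction was called for 6 genes with a positive and 3 with a negative sign, against 8.56% and 10.9% of all genes. The negative count was near that share. When the vehicle control took the place of the untreated libraries the counts were 17 and 1, and 1391 and 1955 over all 15881 genes. CSF2, the growth factor GM-CSF, went from 4.16, 3.00 and 2.53 to 26.6, 27.5 and 30.1 CPM (log2 fold change 3.11 ± 0.12, adjusted p = 1.63e-15), and the vehicle control had 23.9, 20.6 and 20.3 CPM against 5.13, 4.63 and 4.04 untreated. BIRC3, an inhibitor of apoptosis and of necroptosis in TNF signalling, went from 9.67, 12.5 and 10.1 to 55.5, 58.5 and 62.4 CPM. IL1B, interleukin-1 beta, was at 153, 166 and 173 CPM untreated, 42.9, 45.2 and 46.8 CPM with doxorubicin and 138, 139 and 149 CPM with both, where the last group lies above doxorubicin (log2 fold change 1.66 ± 0.06) and under untreated cells. In the vehicle control IL1B reached 473 ± 30.5 CPM.

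CXCL8, the neutrophil chemokine, rose by 1.03 ± 0.09 and TNFAIP3, the feedback inhibitor A20, by 1.04 ± 0.05, both just past the limit. Each was higher still in the vehicle control, at 364 ± 49.3 and 843 ± 25.3 CPM against 123 ± 2.74 and 468 ± 3.94 CPM with CKI plus doxorubicin. IL6 was the gene of the list that fell. It had 1.45 to 2.27 CPM untreated, 88.3, 90.3 and 91.8 CPM with doxorubicin and 34.6, 35.8 and 33.8 CPM with both (log2 fold change -1.38 ± 0.07). BCL2A1 (chr15:80253234-80263538), an anti-apoptotic member of the BCL2 family and a known NF-kappa-B target, was the gene of 16 BCL2 relatives that passed the test. This 1 gene is 6.25% of the family, against 6.89% of all genes that rose. Over those 16 the interaction was called for 2 with a positive and 4 with a negative sign, against 8.56% and 10.9% of all genes. BCL2A1 rose from 2.27, 2.56 and 2.18 to 19.7, 19.9 and 20.5 CPM, while CKI alone lowered it from 5.78, 6.51 and 5.17 to 0.92, 1.34 and 1.54 CPM, and the vehicle control had 11.5 ± 1.53 CPM. The interaction was 5.31 ± 0.22 (adjusted p = 1.53e-14).

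The promoter of BIRC3 is shown for its NF-kappa-B site, as the interaction of BIRC3 was among those called (2.52 ± 0.15). The capitals mark GGG, any 2 bases and TTTCC on either strand in the 250 bases before the start site (GRCh38.p14, chr11:102317234-102317483, forward strand).
BIRC3: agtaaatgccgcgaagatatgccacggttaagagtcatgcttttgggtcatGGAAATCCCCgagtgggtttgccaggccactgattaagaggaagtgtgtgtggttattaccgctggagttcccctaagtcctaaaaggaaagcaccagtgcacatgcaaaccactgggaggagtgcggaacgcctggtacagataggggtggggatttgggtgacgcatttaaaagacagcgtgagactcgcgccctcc
The match begins 199 bases before the start site. Such a match was present in 10 of 23 genes of the list with a sequence (43.5%), among them IL6, which fell, and in 1.91% of all promoters.

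ADAM11 (chr17:42836356-42859214), a catalytically inactive member of the ADAM family known from neurons, had the smallest adjusted p-value of the genes that fell. It was at 1.73, 1.71 and 0.757 CPM in untreated libraries, 206, 204 and 194 CPM with doxorubicin and 6.25, 4.4 and 6.24 CPM with CKI plus doxorubicin. The doxorubicin libraries stand far above all others, and the combined libraries lie 35.8-fold under them (log2 fold change -5.16 ± 0.11, adjusted p = 8.72e-20), and the interaction was -5.52 ± 0.29.

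Of 17 genes of ID proteins and BMP signalling, 5 (29.4%, against 8.03% of all genes) fell and 12 did not pass. ID2 (chr2:8818975-8824591), an inhibitor of basic helix-loop-helix factors, was at 15.98, 18.3 and 17.6 CPM untreated, 129, 132 and 141 CPM with doxorubicin and 33.2, 32.6 and 32.2 CPM with both (log2 fold change -2.04 ± 0.07). SMAD6, an inhibitor of BMP receptors, fell from 12.2, 11.6 and 12.8 to 2.54, 3.06 and 2.92 CPM, under the untreated range of 7.39 to 9.3 CPM. FST, follistatin, which binds activin, fell from 143 ± 2.83 to 33.7 ± 1.09 CPM, and CKI alone gave -2.37 ± 0.07 against untreated cells. ID1 had a log2 fold change of -0.79 ± 0.06 and was not called, and the vehicle control had lowered it by 1.02 ± 0.05.

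OVOL2, a zinc finger factor that maintains epithelial identity, fell from 8.46, 9.29 and 7.39 to 0.879, 0.765 and 1.41 CPM (log2 fold change -3.04 ± 0.19). VIM, vimentin, a filament protein of mesenchymal cells, fell from 34.8, 32.0 and 37.0 to 11.2, 10.7 and 11.0 CPM and TWIST1, a mesenchymal factor, from 11.6 ± 1.78 to 4.02 ± 0.641 CPM. Of 22 genes of epithelial and mesenchymal state, 4 (18.2%, against 8.03% of all genes) fell, 2 (9.09%, against 6.89%) rose and 16 did not pass. Those that rose were CDH2, the mesenchymal N-cadherin, by 1.05 ± 0.30 from 0.753 ± 0.166 to 1.56 ± 0.493 CPM, and CLDN4, a tight junction claudin, by 1.46 ± 0.07. The remaining gene that fell, not named here, is a mesenchymal factor too. Epithelial genes were thus found in both directions, and CDH2 was the mesenchymal gene of the list that rose. CDH2 lost the call without CKI plus doxorubicin replicate 1 (0.76), without doxorubicin replicate 1 (0.94) or 2 (0.99), and with offsets for GC content and length (0.99). The vehicle control raised CLDN4 by 1.07 ± 0.07. Of 17 YAP and TEAD targets, 2 (11.8%, against 8.03% of all genes) fell, ARHGEF17 (-1.74 ± 0.09) and CCN2 (-1.42 ± 0.09), the matricellular protein. CCN1, the relative of CCN2, had a log2 fold change of 0.39 ± 0.06 and was not called. Both were raised by the vehicle control, CCN2 standing at 31.5 ± 1.7 CPM there against 3.55 ± 0.419 CPM untreated and CCN1 being higher by 1.75 ± 0.06.

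Of 23 matrix proteases and plasminogen genes, 4 (17.4%, against 6.89% of all genes) rose and 2 (8.7%, against 8.03%) fell. PLAU, urokinase, rose by 1.30 ± 0.05 and SERPINB2, its inhibitor, by 1.46 ± 0.09, from 393 ± 10.4 to 1084 ± 35.5 CPM. The vehicle control raised SERPINB2 too, by 2.47 ± 0.10. MMP13, a collagenase, rose from 3.00, 3.39 and 3.17 to 7.03, 7.51 and 7.19 CPM and ADAMTS1, an aggrecanase, fell by 1.17 ± 0.10. MMP1 was at 4.11, 4.67 and 5.11 and 2.82, 3.01 and 1.41 CPM and its log2 fold change of -0.93 ± 0.24 was under the limit, which it passed without doxorubicin replicate 1, CKI plus doxorubicin replicate 1 or CKI plus doxorubicin replicate 2 (-1.01, -1.05 and -1.11).

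**Figure D4:**
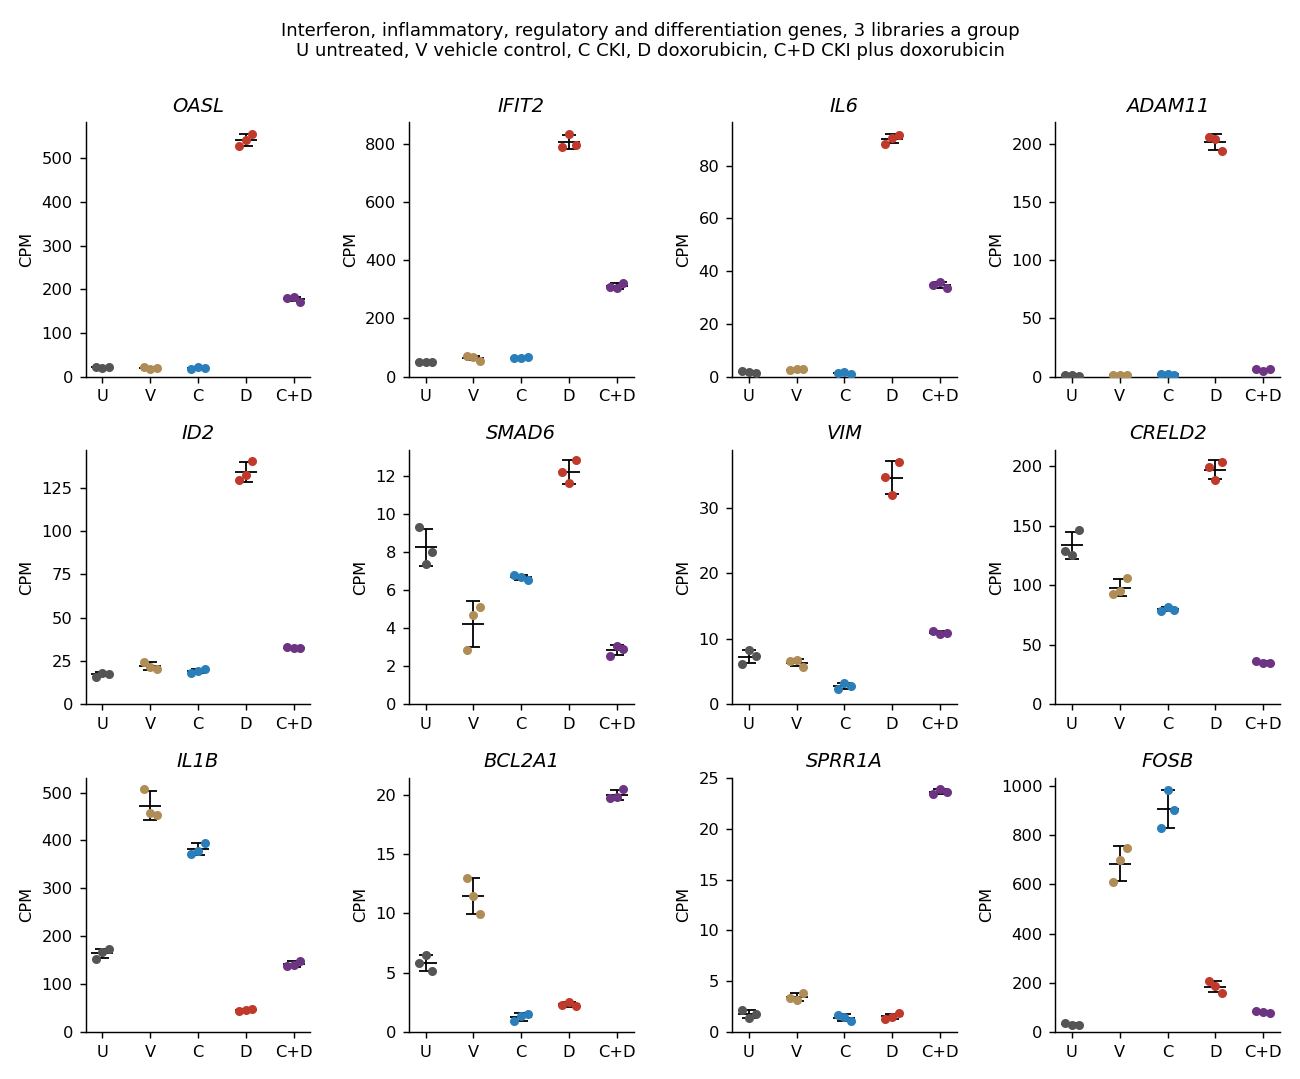
Level (CPM, linear axis from 0) of 12 genes in the 5 A431 groups, with 1 point per library and the mean ± SD of 3 libraries in black. In the upper 2 rows the CKI plus doxorubicin libraries lie below doxorubicin, and in the lowest row IL1B, BCL2A1 and SPRR1A lie above it, whereas FOSB lies below it and is highest in CKI alone and the vehicle control.

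Markers of keratinocyte differentiation rose more often than they fell. Of 37 genes of epidermal differentiation and the cornified envelope, 12 (32.4%) rose, 4 (10.8%) fell and 21 did not pass, with a median of 0.63. Of all genes, 6.89% rose and 8.03% fell. The vehicle control alone raised 6 of the 37 against untreated cells, with a median of 0.23, where it raised 1.05% of all genes. The small proline-rich proteins, which are cross-linked into the cornified envelope, led the list. SPRR1A (chr1:152956557-152958290) had 1.3, 1.47 and 1.83 CPM with doxorubicin and 23.5, 23.9 and 23.7 CPM with CKI plus doxorubicin, 15.4-fold higher (log2 fold change 3.94 ± 0.14, adjusted p = 3.16e-16). In untreated and CKI libraries SPRR1A lay at 1.32 to 2.15 and 1.06 to 1.7 CPM and in the vehicle control at 3.12 to 3.82 CPM, so the combined libraries stood apart from all 12 other A431 libraries.

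SPRR2D rose from 4.69, 3.69 and 5.25 to 27.3, 29.8 and 31.9 CPM, and SPRR1B from 4.49, 4.91 and 4.86 to 20.1, 20.2 and 23.2 CPM. SPRR2D was also higher in the vehicle control than in untreated cells, by 2.74 ± 0.17. The members of the family are alike in sequence, so that reads could be divided among them unevenly. IVL, involucrin, an early envelope protein, went from 6.19, 7.03 and 5.9 to 22.2, 19.8 and 22.6 CPM, above the untreated range of 15.3 to 18.4. With CKI alone IVL was at 13.2 ± 1.02 CPM, and the interaction of 2.12 ± 0.14 was called. The interaction was called with a positive sign for 11 and with a negative sign for 4 of the 37 genes. Among all genes it was called for 8.56% and 10.9%, and the negative count was near that share.

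The genes that fell in this list were S100A12 (log2 fold change -1.18 ± 0.19), a calcium-binding protein of 5.2 ± 0.654 CPM with doxorubicin, KRTDAP (-1.16 ± 0.29), KRT4 (-1.14 ± 0.24) and KLK10 (-1.12 ± 0.10), a kallikrein protease. When GC content and length were corrected for, KRTDAP (-0.90), KRT4 (-0.94) and KLK10 (-0.99) came to lie just under the limit of size, with adjusted p-values still under 0.05. Of 18 genes of basal keratinocyte identity, 1 (5.56%, against 6.89% of all genes) rose, the desmoglein DSG3, from 61.3 ± 7.05 to 191 ± 8.83 CPM. The basal keratins KRT5 and KRT14 stayed close, at 1654 ± 22.9 and 1467 ± 31.4 CPM and at 1709.9 ± 27.2 and 1517 ± 60.6 CPM, with log2 fold changes of -0.17 ± 0.05 and -0.17 ± 0.07 that were not called. Offsets for GC content and length turned them to 0.04 and 0.06. EGFR, which A431 cells carry in many copies, was at 795, 828 and 822 CPM with doxorubicin and 1606, 1549 and 1565 CPM with both, a log2 fold change of 0.95 ± 0.05 just under the limit. None of 22 genes of the EGFR family, its ligands and ERK feedback was called by edgeR or DESeq2, and at an unadjusted p under 0.05 edgeR gave 11 higher and 7 lower. JCAD, a junctional protein, was among the 8 genes with the smallest adjusted p-values that rose, by 2.42 ± 0.07.

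Immediate early genes, which stress and growth signals switch on within minutes, had the lowest median interaction of the 32 lists, at -1.43. Of 24 such genes, 17 were higher in CKI than in untreated cells, with a median of 1.70, against 12% of all genes. When CKI was added to doxorubicin, 2 rose (KLF6 and FOSL1), 2 fell (FOSB and NR4A1) and 20 did not pass, with a median of -0.04. Each pair is 8.33% of the list, where 6.89% of all genes rose and 8.03% fell. The interaction was called for 16 of 24 with a negative sign and for 1 with a positive sign, against 10.9% and 8.56% of all genes. The vehicle control raised 14 of the 24, with a median of 1.54, where it raised 1.05% of all genes. With the vehicle control as the reference for CKI alone the interaction was called for 4 with a negative and 3 with a positive sign. Over all 15881 genes these counts were 1955 and 1391.

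FOSB (chr19:45971253-45978437), a subunit of AP-1, had 37.5, 28.0 and 28.1 CPM untreated, 609, 697 and 747 CPM with vehicle, 831, 986 and 903 CPM with CKI, 205, 186 and 160.0 CPM with doxorubicin and 85.8, 82.5 and 75.8 CPM with both. Its log2 fold change was 4.86 ± 0.12 with CKI alone and -1.17 ± 0.10 when CKI was added to doxorubicin, and the interaction was -6.04 ± 0.15, or -1.58 against the vehicle control. NR4A1, an orphan nuclear receptor, fell from 56.6 ± 0.296 to 25.1 ± 1.995 CPM, with 49.0 ± 6.05 CPM in the vehicle control and an interaction of -4.31 ± 0.11, or -2.50 against the vehicle. ATF3, a stress factor that doxorubicin raised to 149 ± 3.87 CPM, was at 157 ± 8.4 CPM with CKI added and at 439 ± 56.7 CPM in the vehicle control. KLF6 rose from 90.9 ± 5.98 to 186 ± 2.61 CPM, and FOS was at 67.3 ± 3.44 and 63.7 ± 3.27 CPM. The vehicle control had 522 ± 32.1 CPM of KLF6 and 744 ± 51.3 CPM of FOS. The signs of the interactions of ATF3 (-4.74) and KLF6 (-2.30) were the opposite against the vehicle control, at 0.41 and 1.03.

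**Figure D5:**
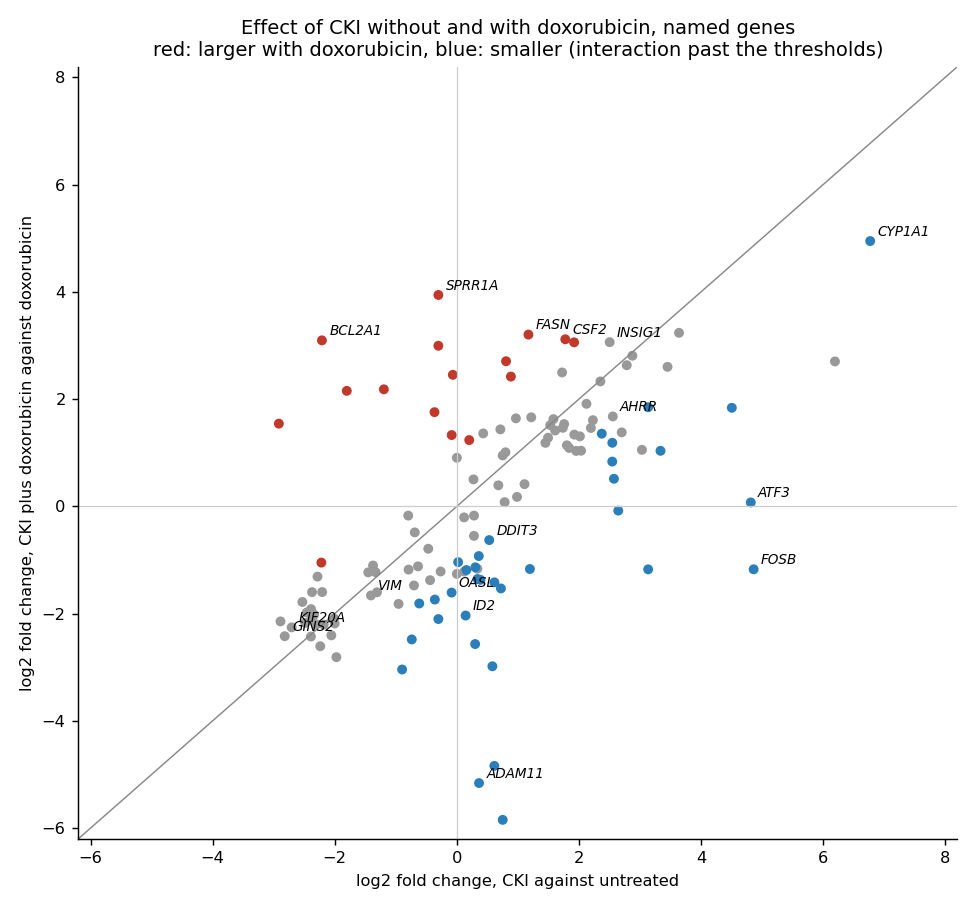
Log2 fold change of CKI against untreated cells (x axis) and of CKI plus doxorubicin against doxorubicin (y axis) for the genes named in the text, with the line of equal effect. Genes above the line in red had a larger and genes below it in blue a smaller log2 fold change with doxorubicin (interaction), CYP1A1 at 6.77 and 4.95, FOSB at 4.86 and -1.17 and BCL2A1 at -2.21 and 3.09.

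Of 29 genes of the ATF4 response, 3 (10.3%, against 8.03% of all genes) fell, ATF5 (-1.48 ± 0.08), STC2 (-1.603 ± 0.07) and PHGDH (-1.23 ± 0.07), which starts serine synthesis. DDIT3, the pro-apoptotic factor CHOP that doxorubicin had raised from 16.6 ± 0.494 to 108 ± 6.1 CPM, was at 69.8 ± 2.51 CPM with both and was not called. No gene of the list rose. Of 21 genes of the unfolded protein response of the endoplasmic reticulum, 1 (4.76%, against 8.03% of all genes) fell. This was CRELD2 (chr22:50311815-50321188), a secreted protein of that response, which went from 199.8, 189 and 204 to 36.6, 35.0 and 34.3 CPM (log2 fold change -2.48 ± 0.07), under the untreated range of 125 to 147 CPM. HSPA5, the chaperone BiP that usually moves with CRELD2, was at 730.2 ± 6.46 and 633 ± 20.9 CPM. Of 18 cytosolic heat shock genes, 1 (5.56%, against 6.89% of all genes) rose, the HSP40 chaperone DNAJB1, by 1.24 ± 0.05.

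Of 22 genes known as targets of p53, 2 (9.09%, against 6.89% of all genes) rose and 20 did not pass, with a median of -0.03. PHLDA3, an inhibitor of AKT, went from 60.03, 55.9 and 60.1 to 166, 157 and 152 CPM and ZMAT3, an RNA-binding protein, from 8.55, 9.14 and 10.4 to 22.9, 23.2 and 24.8 CPM. MDM2 was at 39.9 ± 0.672 and 45.1 ± 0.84 CPM, and GDF15 at 253 ± 8.29 and 268 ± 17.8 CPM. Neither was called.

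In metabolism, 4 of 32 genes of glycolysis and the hypoxia response rose (12.5%, against 6.89% of all genes) and 1 fell (3.12%, against 8.03%). ANGPTL4, a lipoprotein lipase inhibitor, rose by 1.53 ± 0.10, ENO2, an enolase, by 1.36 ± 0.08, SLC2A3, a glucose transporter, by 1.38 ± 0.36 and HK1, a hexokinase, by 1.01 ± 0.06, and PFKFB4, which sets fructose 2,6-bisphosphate, fell by 1.19 ± 0.08. Of 44 nuclear-encoded subunits of the respiratory chain, none was called by edgeR or DESeq2, and at an unadjusted p under 0.05 edgeR gave 16 higher and 13 lower. Of 34 lysosomal genes, NPC1, the exporter of lysosomal cholesterol, rose (1.28 ± 0.06) and MCOLN1, a calcium channel, fell (-1.22 ± 0.12). Each is 2.94% of the list, under the 6.89% of all genes that rose and the 8.03% that fell. Among 16 genes of prostaglandin synthesis and receptors, PLA2G4A, the phospholipase that frees arachidonate, rose by 1.14 ± 0.16. PTGIS, prostacyclin synthase, fell by 1.36 ± 0.20, and the vehicle control had lowered it as well (-1.16 ± 0.34). These are 6.25% of the list in each direction, which is also under the shares of all genes. Of 4 metallothioneins tested, 1 (25%, against 8.03% of all genes) fell, MT1X (-1.10 ± 0.09). With offsets for GC content and length, MCOLN1 (-0.99) and MT1X (-0.90) came to lie under the limit of size, as did CXCL8 (0.99), IFNL1 (-0.95), KLF6 (0.97) and NR4A1 (-0.97) of the lists above. HK1 lost its call in 8 of 17 other settings (0.97 to 1.00).

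Markers of other cells were compared as well. Of 9 mesenchymal marker genes tested, VIM (11.1% of the list, against 8.03% of all genes) was the gene that fell. The summed level of the list was 43.0 to 48.5 CPM with doxorubicin and 23.8 to 24.1 CPM with both. VIM itself made up 32.0 to 37.0 CPM of the former and 10.7 to 11.2 CPM of the latter. The genes that did not pass had log2 fold changes from -0.728 to 0.675. Of 5 leukocyte markers tested, none was called by edgeR or DESeq2, with 1 higher and 1 lower at an unadjusted p under 0.05, and the sum was 18.4 to 20.0 CPM with doxorubicin and 17.3 to 19.4 CPM with both. The leukocyte marker PTPRC had 23 to 31 counts with doxorubicin, 25 to 39 with both and 0 in each untreated library, and CD3D and MS4A1 had at most 4 counts in any of the 6 libraries compared. Of 5 endothelial markers tested, 3 (60%, against 6.89% of all genes) rose, CDH5, VWF and TEK. The sum of the list was 11.7 to 13.95 CPM with doxorubicin and 46.6 to 49.4 CPM with both. It was 23.2 to 26.4 CPM in untreated libraries and 38.7 to 41.3 CPM with CKI alone. CDH5 had 362 to 383 counts in untreated libraries, 117 to 147 with doxorubicin and 585 to 617 with both. TEK rested on 4 to 9 counts with doxorubicin and 11 to 19 with both and was not called by DESeq2 (adjusted p = 0.124). VWF, the von Willebrand factor, was also high with CKI alone, at 30.1 ± 1.48 CPM. KDR, a defining endothelial receptor, had 11 to 19 counts in the 6 libraries and was not called. The part of these genes in the rise of NOS3, which endothelial cells also express, was not tested.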

How the data were processed

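RNA of A431 cells was sequenced as unstranded paired-end libraries. The authors deposited a table of raw read counts per gene, in which 27 columns matched the 27 libraries by name. The submitters' processing notes name Trim Galore 0.3.7, STAR 2.5.3a, edgeR and hg19. The counting tool and annotation are not given in the sources used here. The study's paper does not describe the A431 libraries with doxorubicin, so that their treatment rests on the labels. The table held 24566 rows, no blank or summary row, and 24422 with a symbol. 194 Ensembl IDs stood in more than 1 row. Without strand, reads of overlapping and antisense genes cannot be told apart.

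Counts of the 15 A431 libraries were filtered (filterByExpr), scaled with TMM factors and fitted with the quasi-likelihood test of edgeR 4.0.16 (R 4.3.3), 1 term per group. Calls required a Benjamini-Hochberg adjusted p under 0.05 over 15881 genes and a log2 fold change over 1 in size. The interaction was the difference between the log2 fold change of CKI with doxorubicin and that without. Alternatives were RLE factors, library size alone, DESeq2 1.42.0, other filters, only the groups compared, adjusted p alone, the replicate block, offsets for GC content and length, 1 row per ID, vehicle libraries in place of untreated ones, and each library left out. On simulated data, the main comparison recovered 99% of 200 changed genes and the interaction 95.5%, over 15516 genes. The changes were set well above the log2 limit of 1, in genes that were not low, and no other gene was given an effect of CKI. Recovery near the limit, in low genes or with many changed genes was not tested. Total counts ranged from 17757206 to 21756536, and the worth of 3 reads given as a floor covers counting error only.

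The comparison, the 36 gene lists and the rule for named genes were chosen with earlier results of these data known. The rule took the 8 genes of smallest adjusted p in each direction, up to 3 genes per list and direction with at least 5 CPM, and a fixed set of marker genes, of which 1 is not reported here. The list members ABCG1, ACSS2, CYP1A2, AKR1C2, CCND2, IFNB1, HERC5, KRTDAP, KRT4, SLC2A3, CDH2 and TEK and the 6 genes of the closing observations lay outside it and were chosen after their values were seen. Of 796 list genes 14 were not matched and were not analysed here, the mitochondrially encoded ones among them. Gene coordinates are from GENCODE on GRCh37 and promoter sequences from RefSeq on GRCh38.p14.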

Additional observations from a re-analysis of the deposited data

Results flagged for a closer look

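The log2 fold change of CKI differed with and without doxorubicin, tested as an interaction term in the fit of all A431 libraries, for 3092 of 15881 genes, of which 50 are named in the text. The interaction is given here as the log2 fold change with doxorubicin minus that without it. With vehicle libraries in place of untreated ones 3346 genes differed, and 2287 of the 3092 were called in the same direction.

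Among all genes 8.56% had a positive and 10.9% a negative difference that was called. In fatty acid synthesis 2 of 13 genes had a positive and 4 a negative difference, and in sterol synthesis 2 of 25 each, near those shares. It was 2.03 for FASN, 1.14 for LPIN1, -1.29 for ACSS2 and -1.36 for the sterol exporter ABCG1. It was negative in the detoxifying genes CYP1A1 (-1.82), CYP1B1 (-2.06) and HMOX1 (-1.02). In keratinocyte differentiation it was positive for SPRR1A (4.24), SPRR1B (3.96), SPRR2D (1.90) and IVL (2.12) and negative for KRT4 (-1.44). Of 28 NF-kappa-B genes 6 had a positive and 3 a negative difference, the latter near the share of all genes. For 16 BCL2 family genes the counts were 2 and 4. The difference was 5.31 for BCL2A1, 2.52 for BIRC3 and 1.34 for CSF2. Cyclins had 4.46 for CCND2 and 1.17 for CCNB1, and the inhibitor CDKN1A had -1.71. Of 40 interferon genes 1 had a positive and 6 a negative difference, with -1.52 for OASL, -1.76 for IFIT2 and -1.06 for HERC5.

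Immediate early and stress genes had -6.04 for FOSB, -4.74 for ATF3, -4.31 for NR4A1, -2.72 for FOS, -2.30 for KLF6, -1.16 for DDIT3, -1.74 for CRELD2, 1.41 for FOSL1 and 1.03 for DNAJB1. The vehicle control had raised FOSB, ATF3, NR4A1, FOS and KLF6, and against it FOSB had -1.58, NR4A1 -2.50, FOS -0.22, ATF3 0.41 and KLF6 1.03, the last pair with the opposite sign. Regulators and matrix genes had -5.52 for ADAM11, -2.37 for ADAMTS1, -1.29 for MMP1, -2.18 for ID2, -1.80 for SMAD6, -2.15 for OVOL2, -2.25 for TWIST1, -1.38 for ARHGEF17 and -2.03 for CCN2, which was 1.12 against the vehicle control. The endothelial markers had 3.38 for CDH5 and -2.67 for VWF, and JCAD had 1.53. In metabolism PFKFB4 had -1.34 and PTGIS -1.69. The 6 genes described among the other observations had -6.60 for AZU1, -5.45 for PLPPR3, -3.56 for DLL4, -1.20 for MDK, -2.87 for RARRES1 and 3.30 for RXRA.

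Of these 50 genes, 8 lost the call in at least 1 setting with the sign kept. Another 3, ATF3, CCN2 and KLF6, had the opposite sign with vehicle libraries in place of untreated ones, where ATF3 was no longer called.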

How the results depend on the processing

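The comparison of CKI plus doxorubicin with doxorubicin gave 2259 to 2599 genes under the alternatives, against 2369, except for 10102 at adjusted p alone and 1431 with at least 10 counts in every library, where 12485 genes were tested. Leaving out 1 library gave 2363 to 2497 genes for it, 2989 to 3168 for the interaction, 3457 to 3605 for CKI against untreated, 6073 to 6297 for doxorubicin and 324 to 561 for the vehicle control, the last without vehicle control replicate 3. Adjusted p alone gave 9117 genes for the interaction, 10648 for CKI, 12802 for doxorubicin and 6748 for the vehicle control, and 10 counts in every library gave 3197 for doxorubicin and 174 for the vehicle control. The vehicle control against untreated cells, with 404 genes, came to 263 with the 2 groups alone, to 243 with offsets for GC content and length and to 233 with offsets and the replicate block, and its higher share went from 41.1% to 62.6% with the offsets and to 59.2% with 10 counts. Its log2 fold changes had a rank correlation of -0.58 with GC content across 15843 genes, against -0.19 in the main comparison, where the offsets moved the higher share from 46.2% to 51.7%. The replicate block gave 2362 genes in the main comparison, 3059 for the interaction, 3528 for CKI, 5919 for doxorubicin and 386 for the vehicle control. Libraries of the same number did not deviate together in the main comparison (correlations of 0.001, -0.003 and 0.026). Such values cannot show whether libraries of the same number were prepared together. The median log2 fold change of doxorubicin moved from 0.02 to 0.11 with RLE factors or DESeq2, 0.36 with library size alone and 0.32 without a filter, and that of CKI to 0.11 with library size alone.

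With the offsets, with or without the block, log2 fold changes that were not called turned to 0.077 for FOS, 0.063 for KRT14, 0.04 for KRT5 and -0.028 for MDM2. With vehicle libraries in place of untreated ones, interactions turned to 0.41 for ATF3, 1.12 for CCN2 and 1.03 for KLF6, and the calls of CDKN1A (-0.74), DDIT3 (-0.34), FOS (-0.22), HMOX1 (-0.99) and ACSS2 (-0.98) were lost. Of 110 genes named and called in the main comparison, 13 lost the call in at least 1 of 17 settings and none reversed. These were CDH2, CXCL8, HK1, IFNL1, KLF6, KLK10, KRT4, KRTDAP, MCOLN1, MT1X, NR4A1, TNFAIP3 and TEK. With 10 counts in every library, 3 in place of 5 interferon genes fell, 6 in place of 11 NF-kappa-B genes rose, and 2 in place of 4 epidermal and 3 in place of 5 ID and BMP genes fell, where genes low in any library were left out. Counts of at most 4 genes in other lists moved by 1 or 2 genes in some settings, and the aryl hydrocarbon receptor genes that rose went from 3 to 1. The cause of the other changes was not tested. Depth limits genes near 3 counts, such as TEK and CYP1A2.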

Other observations

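A set of 6 genes outside the lists passed the test when CKI was added to doxorubicin, and they were chosen after their values were seen. AZU1, an antimicrobial protein of neutrophil granules, had 0.477, 0.221 and 0.189 CPM in untreated libraries, 39.4, 30.4 and 36.6 CPM with doxorubicin and 0.416, 0.43 and 1.01 CPM with CKI plus doxorubicin, 57.6-fold lower than doxorubicin (log2 fold change -5.85 ± 0.26, adjusted p = 1.09e-14). PLPPR3, a phospholipid phosphatase-related protein of neurons, had 28.9, 27.3 and 28.4 CPM with doxorubicin and 1.11, 1.1 and 0.704 CPM with both (log2 fold change -4.84 ± 0.18). Both genes lie close together, PLPPR3 at chr19:812488-821955 and AZU1 at chr19:825097-832018 (GRCh37), and both were near the worth of a few reads in each untreated library.

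DLL4, a Notch ligand, fell from 16.5, 14.5 and 17.1 to 2.08, 1.91 and 2.06 CPM against at most 0.252 CPM untreated. MDK, the growth factor midkine, had 161, 159 and 175 CPM untreated, 504, 483 and 521 CPM with doxorubicin and 144, 140.1 and 145 CPM with both, so that the combined libraries lay under untreated ones. RARRES1, a retinoic acid responsive gene, fell from 38.2 ± 1.91 to 6.44 ± 0.773 CPM, with 6.56 ± 0.259 CPM untreated.

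RXRA, the retinoid X receptor alpha that pairs with many nuclear receptors, had 339, 301 and 339 CPM in untreated libraries, 1.69, 2.31 and 2.73 CPM with doxorubicin and 18.3, 17.5 and 17.9 CPM with both. With both, RXRA was thus 7.97-fold higher than with doxorubicin (log2 fold change 2.99 ± 0.17, adjusted p = 8.42e-13). It remained far under untreated cells in each of the 3 libraries. In the vehicle control RXRA was at 179, 225 and 269 CPM, and with CKI alone at 250.3, 278 and 264 CPM.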
